A study of Mus musculus with 6 samples.

Results

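The 6 myocardial RNA libraries of this series differ in the level of 3 atrial muscle transcripts, and they were placed on 2 sides by that level. The libraries were chosen by a score, the average over Sln, Myl7 and Myl4 of log2(CPM + 1), where CPM is a gene's expected count scaled to the library total. A score above 7 put a library on the high side and a score below 6 on the low side, and all 6 of 6 libraries fell on one or the other. The high side holds WT 3, NS-DADm 1 and NS-DADm 3, and the low side holds WT 1, WT 2 and NS-DADm 2. The samples are heart muscle of 6-week-old mice on a C57BL/6 background, 3 wild type (WT) and 3 NS-DADm, and no treatment is named for either group. NS-DADm mice are known as a knock-in model in which deacetylase activating domains are mutated, including that of the nuclear receptor corepressor NCOR, a domain that activates the histone deacetylase HDAC3. The mutations are in every cell of the animal, so a difference in heart RNA need not arise in muscle cells. Whether the samples are separate mice, and which chambers of the heart were taken, is not stated in the labels.

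Ncor1 (gene ID 20185), which encodes NCOR, was read at a similar level in all samples, from 21.55 to 24.91 FPKM. FPKM is the authors' level per gene, scaled for transcript length and library size. Mutations of this kind need not change RNA levels, so this level does not check the genotype labels. Total expected counts were 10183792 to 11205221 in WT and 12262523 to 12758311 in NS-DADm, so the NS-DADm libraries were deeper, while the sides overlapped in depth. No sample pair was a duplicate (chi-square of counts per gene 3.45 to 17.9). Across genes, log2 CPM correlated at 0.9821 to 0.9892 between libraries of one side and at 0.9719 to 0.9865 between libraries of different sides.

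Atrial and ventricular muscle cells share most of their contractile proteins but use different myosin light chains and calcium pump regulators. Atrial muscle is also an endocrine tissue that stores natriuretic peptide in secretory granules. The atria carry the sinus node and join the great veins, and fat, serous lining and nerve ganglia lie close to them. In bulk tissue, fewer cells of a type and less RNA per cell cannot be told apart, and that holds for every gene group below.

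The score genes themselves chose the sides, so their values are given only as a description. The score was 4.62 in WT 1, 2.54 in WT 2, 8.46 in WT 3, 8.01 in NS-DADm 1, 5.23 in NS-DADm 2 and 8.71 in NS-DADm 3. Sln (gene ID 66402), sarcolipin, an inhibitor of the calcium pump that is rich in atria, was read at 25.22, 5.13 and 358.2 FPKM in WT 1, 2 and 3 and at 307.3, 34.26 and 440 FPKM in NS-DADm 1, 2 and 3. Myl7 (gene ID 17898), the atrial regulatory light chain of myosin, stood at 50.93, 9.77 and 795.5 FPKM in WT and at 446.3, 84.26 and 804.5 FPKM in NS-DADm. All 3 genes were lowest in WT 2, and the low side was not uniform. Even on the high side Myl7 stayed far under Myl2, the ventricular regulatory light chain, which was read at 15370 to 20070 FPKM there and at 18520 to 21250 FPKM on the low side.

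The genotypes overlapped in the score. It averaged 5.20 ± 3.0 (SD, n = 3) in WT and 7.32 ± 1.85 (SD, n = 3) in NS-DADm, and each genotype had libraries on both sides. The difference of 2.11 had an exact two-sided permutation p = 0.3 over the 20 assignments of samples to genotypes, where the smallest p that 3 against 3 samples allow is 0.1, so this test cannot reach 0.05 and says nothing either way. A score made from the atrial gene list in place of the 3 score genes differed by 0.45 between genotypes (exact permutation p = 0.8).

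For every other gene the sides were compared within each genotype, as log2 CPM after TMM scaling, and the WT and NS-DADm differences were averaged. The differences below are on that log2 scale, high side minus low side. They rest on the same libraries that set the sides, so no test of them was made and they describe these 6 libraries. A gene is called set apart here when no library of one side overlaps the other side and the averaged difference is at least 1, which is 2-fold. Of 13127 genes that passed the count filter, with the score genes left out, 159 (1.21%) were set apart with higher values on the high side and 4 (0.0305%) with lower values. Without the size limit, 883 genes (6.73%) had every high-side library above every low-side library and 736 (5.61%) had every one below. The median difference over all genes was 0.002. Overlap was judged on the scaled log2 CPM, and levels are given as FPKM or counts. Of the higher genes, 43 differed by at least 4-fold. Just inside the limit were Smim1 at 1.01 and Podn at 1.00, and just outside it were Olfm1 at 0.996 and Npy1r at 0.995. The count of lower genes was 25 without NS-DADm 2, 11 without WT 3 and 8 without WT 2. It was 7 without NS-DADm 1 or without NS-DADm 3, and 6 without WT 1. Non-overlap is easier to meet with fewer libraries, so these rises do not show dependence on a single library. Without WT 3 the difference also rests on NS-DADm alone, and without NS-DADm 2 on WT alone.

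The atrial muscle genes other than the score genes included Bmp10, the gene with the widest gap of all. Of 20 on the list, 19 passed the filter. Of those 19, 7 were set apart with higher values, beside 1.21% of all genes. Without the size limit, 12 had no overlap with the high side above, beside 6.73% of all genes, and none had it below. The list's median difference was 0.91, and 17 of 19 differences were positive.

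A few promoters of this group are printed because their genes have the widest gaps or the highest level among atrial list genes, and because each holds a match to a motif of a heart transcription factor. They were picked after the matches were seen, and the promoters of Myl7 and Myl4 hold no match to any motif searched. Each is the 250 bases before the gene's start on its own strand, 5′ to 3′, from RefSeq on GRCm38.p6. Capitals mark matches on either strand. The Bmp10 stretch is chr6:87428744-87428993 (plus strand), the Nppa stretch chr4:148000472-148000721 (plus strand) and the Mybphl stretch chr3:108364661-108364910 (plus strand).
Bmp10: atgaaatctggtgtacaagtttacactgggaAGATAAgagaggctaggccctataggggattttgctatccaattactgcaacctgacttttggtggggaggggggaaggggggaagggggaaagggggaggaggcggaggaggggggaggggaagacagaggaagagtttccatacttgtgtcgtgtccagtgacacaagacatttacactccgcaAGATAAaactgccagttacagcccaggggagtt
Nppa: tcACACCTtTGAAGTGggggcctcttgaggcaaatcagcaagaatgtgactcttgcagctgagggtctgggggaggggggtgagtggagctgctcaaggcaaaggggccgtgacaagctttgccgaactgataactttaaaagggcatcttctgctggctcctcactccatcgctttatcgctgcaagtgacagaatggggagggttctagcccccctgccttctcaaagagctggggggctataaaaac
Mybphl: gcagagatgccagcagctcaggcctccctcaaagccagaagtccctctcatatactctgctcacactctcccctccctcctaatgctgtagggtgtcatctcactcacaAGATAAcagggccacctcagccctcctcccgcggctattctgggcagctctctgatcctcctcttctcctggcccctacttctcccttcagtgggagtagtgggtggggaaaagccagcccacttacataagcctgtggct
The motifs searched were AGATAA for GATA factors, TNAAGTG for NKX2-5, AGGTGT for T-box factors and a MEF2 motif, with their reverse complements. Of 32851 promoters of the same length, 9.99% hold the GATA letters, 10.1% the NKX2-5 letters, 3.2% the MEF2 letters and 11.8% the T-box letters. Bmp10 holds 2 GATA matches and Mybphl holds 1, and Nppa holds 1 NKX2-5 match beside 1 T-box match that does not overlap it. A match of letters is a description of the sequence and says nothing of whether a factor binds there.

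Bmp10 (gene ID 12154), a secreted growth factor of the BMP family made in the adult right atrium, was absent from every low-side table. It had 0, 0 and 505 counts in WT 1, 2 and 3 and 840, 0 and 999 counts in NS-DADm 1, 2 and 3. In FPKM the high-side libraries stood at 35.76, 53.92 and 64.77. Against 3 counts in each low-side library, the high side was at least 241-fold higher.

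Nppa (gene ID 230899), which encodes atrial natriuretic peptide, was the most abundant member. It was read at 404, 243.3 and 2728 FPKM in WT 1, 2 and 3 and at 2329, 369.8 and 4204 FPKM in NS-DADm 1, 2 and 3. The sides were far apart, with a difference of 3.12 within WT and 3.05 within NS-DADm. Mybphl (gene ID 68753), a myosin-binding protein of atrial muscle, stood at 3.68, 0.65 and 65.57 FPKM in WT and at 45.94, 6.25 and 74.68 FPKM in NS-DADm. Its difference was 5.23 within WT and 3.17 within NS-DADm, and WT 2 was the lowest library.

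The other set-apart members showed the same split of libraries. Dkk3 (gene ID 50781), a secreted protein of the Dickkopf family, was read at 3.25, 1.91 and 38.26 FPKM in WT 1, 2 and 3 and at 32.45, 3.59 and 43.83 FPKM in NS-DADm 1, 2 and 3, an averaged 12.3-fold difference. Sbk3, a kinase of the SBK family, stood at 23.8 to 35.58 FPKM on the high side and 2.36 to 4.39 FPKM on the low side. Its relative Sbk2 stood at 13.49 to 15.3 FPKM and 4.15 to 5.65 FPKM. Stard10, a lipid transfer protein, was well expressed on both sides, at 73.77 to 94.43 FPKM and 21.25 to 23.47 FPKM.

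Further atrial genes had smaller gaps. Pam, the enzyme that amidates peptide hormones, was at 329.6 to 445.7 FPKM on the high side and 176.1 to 225.6 FPKM on the low side, a difference of 0.88. Tbx5, a transcription factor of atrial and conduction tissue, differed by 0.93, and Kcnj3, a subunit of the acetylcholine-gated potassium channel, by 0.71, both without overlap. The other subunit of that channel, Kcnj5, overlapped between sides (16.38 to 22.45 FPKM and 12.64 to 21.15 FPKM). Kcna5 and Hey1 had small negative differences of -0.11 and -0.12 and also overlapped, so the list did not move as a block.

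**Figure D1:**
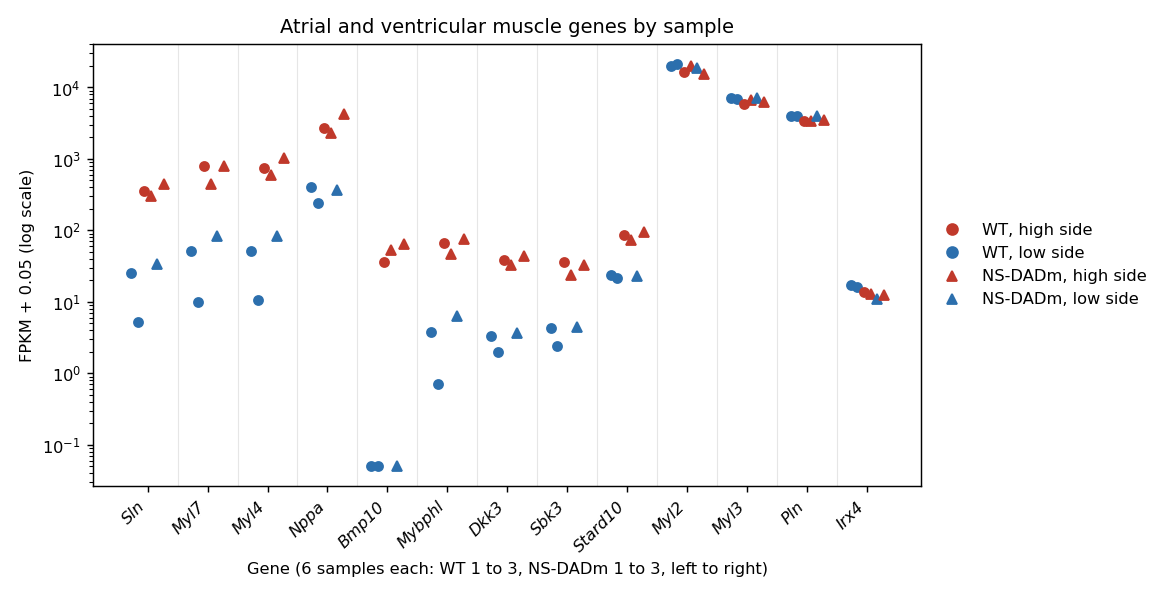
FPKM (plus 0.05, log axis) of the score genes, other atrial genes and ventricular genes in each of the 6 libraries, circles for WT, triangles for NS-DADm, red for the high side and blue for the low side. Bmp10 lies at 0 FPKM in all 3 low-side libraries, while Myl2, Myl3, Pln and Irx4 lie close together on both sides.

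Ventricular and shared muscle genes differed little. None of the 11 ventricular genes was set apart, beside 1.21% of all genes set apart higher and 0.0305% lower. That count is near those shares and is not read as a result. Of the 11, 2 had every high-side library below every low-side library, beside 5.61% of all genes. The reverse held for 1, beside 6.73% of all genes. Myl3, the ventricular essential light chain, was at 5875 to 6773 FPKM on the high side and 6927 to 7233 FPKM on the low side, a difference of -0.21 without overlap. Pln, phospholamban, the calcium pump inhibitor of ventricular muscle, was at 3409 to 3533 and 3966 to 4007 FPKM, a difference of -0.23. Myh7, the slow myosin heavy chain, lay the other way, at 33.2 to 61.25 and 23.68 to 32.08 FPKM, with a difference of 0.25 within WT and 0.99 within NS-DADm. The median of the ventricular list was -0.05, with -0.23 within WT and 0.14 within NS-DADm.

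All 15 shared heart muscle genes passed the filter, as the tissue label requires. None was set apart, beside 1.21% of all genes set apart higher and 0.0305% lower, so that count is not read as a result. Myh6, the main adult mouse myosin heavy chain, was at 5984 to 6130 FPKM on the high side and 5189 to 6530 FPKM on the low side. Only Fabp3, the heart fatty acid binding protein, had no overlap, with a difference of -0.22. That is 1 of 15 with the high side below, near the 5.61% of all genes. The median of the list was -0.07, and 3 of 15 differences were positive. Summed FPKM of the list did not overlap, at 68350 to 70920 on the high side and 72430 to 75600 on the low side.

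Some mitochondrial fuel genes had slightly lower values on the high side. Of 18 fatty acid oxidation genes, 11 had every high-side library below every low-side library, beside 5.61% of all genes. None had the reverse, beside 6.73% of all genes. None was set apart, beside 1.21% of all genes set apart higher and 0.0305% lower. Acadm, the medium-chain acyl-CoA dehydrogenase, was at 774.1, 813.4 and 723.4 FPKM in WT 1, 2 and 3 and at 627.5, 709.3 and 626.5 FPKM in NS-DADm 1, 2 and 3. WT 3 therefore stood above NS-DADm 2 in FPKM, and the sides do not overlap only on the scaled counts, with a difference of -0.18. The list's median was -0.11. Its summed FPKM did not overlap, at 7126 to 7372 on the high side and 7783 to 7823 on the low side. Of 82 respiratory chain genes, 26 had no overlap with the high side below, beside 5.61% of all genes. Of the 82, 5 had positive differences, and the median was -0.09. None was set apart, beside the same shares of all genes. Their summed FPKM overlapped between the sides (63650 to 68020 and 66760 to 72280). Values are relative to each library's scaled total, and the part of the genes with higher values in these differences was not tested.

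Some genes of the sinus node and conduction system were higher on the high side. Of 15 listed, 11 passed, and 5 were set apart with higher values, beside 1.21% of all genes. Shox2, Cacna1h, Cpne5 and Cntn2 were among the 5. Shox2, a transcription factor of the sinus node, had 14, 12 and 37 counts in WT 1, 2 and 3 and 33, 12 and 32 counts in NS-DADm 1, 2 and 3. Cacna1h, a T-type calcium channel, was at 3.58 to 4.51 FPKM on the high side and 1.1 to 1.52 FPKM on the low side. Hcn4, the defining pacemaker channel of the node, overlapped, at 1.31 to 2.62 and 1.13 to 1.63 FPKM, and so did Hcn2 and Tbx3. Isl1 had 0, 0 and 0 counts in WT and 4, 0 and 5 counts in NS-DADm, too few to pass. The median of the list was 0.55. The summed FPKM of the list overlapped between the sides.

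Fat markers differed more than any other list by the median. Of 11, 9 passed, and 8 of those were set apart with higher values, beside 1.21% of all genes. The list median was 3.06 (2.44 without NS-DADm 3). Cfd (gene ID 11537), adipsin, a complement factor secreted by fat cells, was read at 1.53, 1.85 and 51.49 FPKM in WT 1, 2 and 3 and at 30.61, 4.86 and 156.4 FPKM in NS-DADm 1, 2 and 3. Adipoq, the fat hormone adiponectin, was at 2.97, 0.51 and 8.02 FPKM in WT and at 6.51, 0.74 and 25.4 FPKM in NS-DADm. Both were highest in NS-DADm 3.

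Ucp1 (gene ID 22227), the uncoupling protein of brown fat, had 0, 0 and 12 counts in WT 1, 2 and 3 and 33, 0 and 457 counts in NS-DADm 1, 2 and 3. Its high-side mean was at least 50.7-fold above 3 counts in each low-side library, and most of it came from NS-DADm 3. Pck1 (gene ID 18534), a glucose- and glycerol-forming enzyme used by fat cells, was at 0.98, 0.12 and 3.95 FPKM in WT and 4.62, 0.86 and 19.23 FPKM in NS-DADm. Cidea, also a fat droplet protein, overlapped between sides (22.66 to 39.72 FPKM on the high side and 27.41 to 29.24 FPKM on the low side, difference -0.02). The white fat hormone Lep was highest in the low-side library WT 1, at 28 counts against 4 or fewer elsewhere. The summed FPKM of the fat list was 55.67, 34.87 and 146.7 in WT and 113.2, 42.99 and 435.6 in NS-DADm.

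Some lining and valve genes were also higher on the high side. Of 15 epicardial and mesothelial genes, 8 passed and 5 were set apart with higher values, beside 1.21% of all genes. The 5 were Upk3b, Msln, Lrrn4, Krt18 and Gpm6a. Upk3b, a uroplakin of the mesothelial lining, had 12, 0 and 29 counts in WT 1, 2 and 3 and 32, 18 and 190 counts in NS-DADm 1, 2 and 3. Msln, mesothelin, had 7, 0 and 12 counts and 17, 5 and 67 counts. Wt1, Aldh1a2 and Tbx18, which also mark the epicardium, overlapped between sides with differences of -0.24, -0.20 and 0.14. Summed FPKM of the list was 13.71 to 34.86 on the high side and 8.59 to 11.48 on the low side.

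Among 9 valve and cartilage genes, 6 passed and Cytl1, Comp and Chad were set apart with higher values, beside 1.21% of all genes. Cytl1, a secreted cartilage cytokine, was at 13.53, 9.84 and 30.75 FPKM in WT 1, 2 and 3 and at 19.95, 11.37 and 36.55 FPKM in NS-DADm 1, 2 and 3. Comp, a matrix protein of cartilage and tendon, was at 2.81 to 4.86 FPKM on the high side and 0.62 to 1.45 FPKM on the low side. Defining cartilage genes were near 0: Acan had 1 count in all and Col2a1 4. Sox9 overlapped.

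Of 8 endocardial and large-vessel genes, Npr3, Plvap and Bmx were set apart with higher values, beside 1.21% of all genes. Npr3, the clearance receptor of natriuretic peptides, was at 6.21, 3.64 and 13.49 FPKM in WT 1, 2 and 3 and at 9.83, 4.95 and 14.36 FPKM in NS-DADm 1, 2 and 3. Vwf, von Willebrand factor, had no overlap but a difference of 0.96. Of 11 general endothelial genes none was set apart, beside 1.21% of all genes, so that count is not read as a result. Their median was 0.03. Without the size limit 2 of the 11, Pecam1 and Emcn, lay above without overlap, beside 6.73% of all genes. Pecam1 and Emcn had differences of 0.22 and 0.30.

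Genes of other cells gave smaller values. Of 14 fibroblast genes none was set apart, but 8 had every high-side library above, beside 6.73% of all genes. The fibroblast median was 0.26. Of 9 smooth muscle genes that passed, Cnn1, a calponin, was set apart at 1.48 to 3.7 FPKM on the high side and 0.53 to 0.98 FPKM on the low side. Myh11, smooth muscle myosin, Tagln and Lmod1 also had every high-side library above, with differences of 0.49, 0.85 and 0.47. So 4 of the 9 did, beside 6.73% of all genes. No nerve and Schwann cell gene of 10 was set apart, nor any of 12 macrophage, 7 lymphatic, 5 erythroid, 15 immediate early or 81 ribosomal protein genes. Over all genes 1.21% were set apart higher and 0.0305% lower, so lists of these sizes would often hold few or none. Nothing particular to these lists is read from their set-apart counts. No lung epithelial gene passed the filter, and 2 fast skeletal muscle genes did.

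A platelet list and a pigment cell list were added after the values of Ppbp, Itga2b, Tubb1 and Mlana had been seen. Of 13 platelet genes 8 passed, and Ppbp, Itga2b, Tubb1 and Clec1b were set apart with higher values, beside 1.21% of all genes. Ppbp, a chemokine of platelet granules, was at 3.27, 1.92 and 6.48 FPKM in WT 1, 2 and 3 and at 9.24, 0.99 and 3.48 FPKM in NS-DADm 1, 2 and 3. Pf4, platelet factor 4, overlapped. Mlana (gene ID 77836), a melanosome protein, had 2, 1 and 44 counts in WT and 26, 2 and 48 counts in NS-DADm. The averaged difference within genotypes was 10.9-fold. The ratio of pooled counts, high to low, was 22.2, with a 95% interval of 9.25 to 69.6 that covers counting error only. The other pigment genes that passed overlapped between sides, and Tyrp1, Slc45a2 and Pmel were too low to pass.

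**Figure D2:**
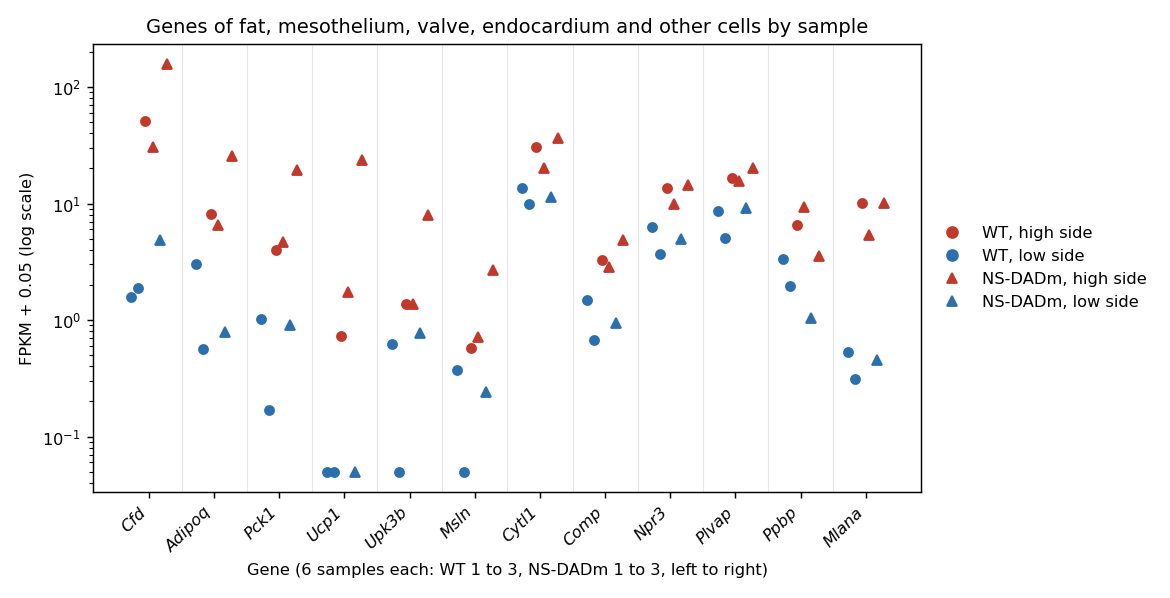
FPKM (plus 0.05, log axis) of 12 genes of fat, mesothelium, valve, endocardium, platelets and pigment cells in each library, with the same symbols and colours as the plot of chamber genes. The 12 were picked from genes already set apart, so high-side libraries lie above low-side libraries for each by choice. List members that overlap between sides, such as Wt1, Cidea, Sox9 and Pf4, are not drawn. NS-DADm 3 is well above WT 3 and NS-DADm 1 for the fat and mesothelial genes.

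The high-side libraries did not rank alike in each group. For the score the order was NS-DADm 3, WT 3 and NS-DADm 1. Summed platelet FPKM was highest in NS-DADm 1 at 53.33, against 36.57 in NS-DADm 3 and 32.49 in WT 3. Summed fat FPKM was highest in NS-DADm 3 at 435.6, against 146.7 in WT 3 and 113.2 in NS-DADm 1. Summed valve FPKM was 50.86, 42.43 and 30.48 in NS-DADm 3, WT 3 and NS-DADm 1. What part fat, lining, valve, vessel or platelet RNA has in the differences of other genes was not tested.

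**Figure D3:**
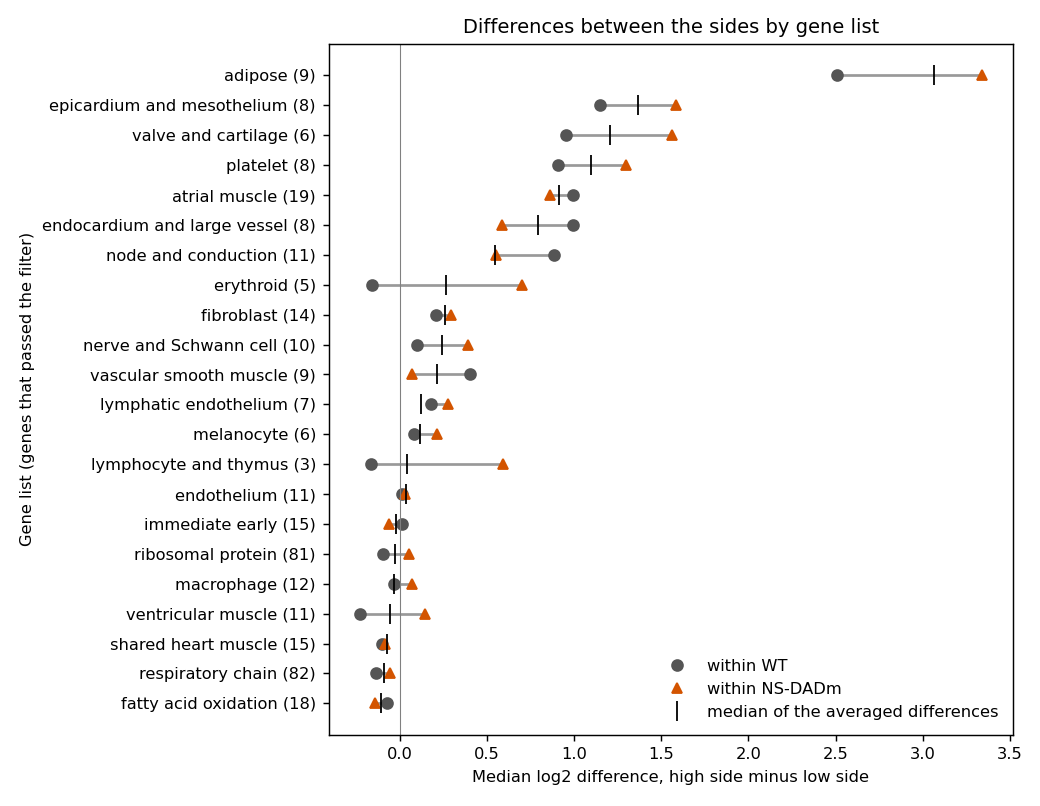
Median log2 difference between the sides for each list with at least 3 genes past the filter, within WT (circles), within NS-DADm (triangles) and for the averaged differences (ticks). The adipose list lies farthest right at 3.06, followed by epicardium and mesothelium at 1.37, while muscle shared by both chambers, respiratory chain and fatty acid oxidation lie just left of 0.

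Beyond the lists, the 12 genes with the widest positive gaps and a mean of at least 1 FPKM included 5 that are on no list. Hamp (gene ID 84506), the iron-regulating hormone hepcidin, had 1, 3 and 87 counts in WT 1, 2 and 3 and 199, 0 and 240 counts in NS-DADm 1, 2 and 3. The averaged difference within genotypes was 48.0-fold. The ratio of pooled counts, high to low, was 124, with a 95% counting interval of 48 to 456 that covers counting error only. No low-side library came near the high side.

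Tmem163, a zinc transporter of the membrane, differed by 14.9-fold, at 4.68 to 7.63 FPKM on the high side and 0.08 to 0.61 FPKM on the low side. Fgf12, an intracellular fibroblast growth factor homologue that binds sodium channels, differed by 12.2-fold, at 3.42 to 5.99 and 0.19 to 0.51 FPKM. Cilp2, a matrix protein of cartilage, differed by 12.8-fold, and Ifltd1, a lamin-tail protein, by 11.6-fold. In each of these 4 genes the WT and NS-DADm differences had the same sign and both exceeded 3 on the log2 scale.

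**Figure D4:**
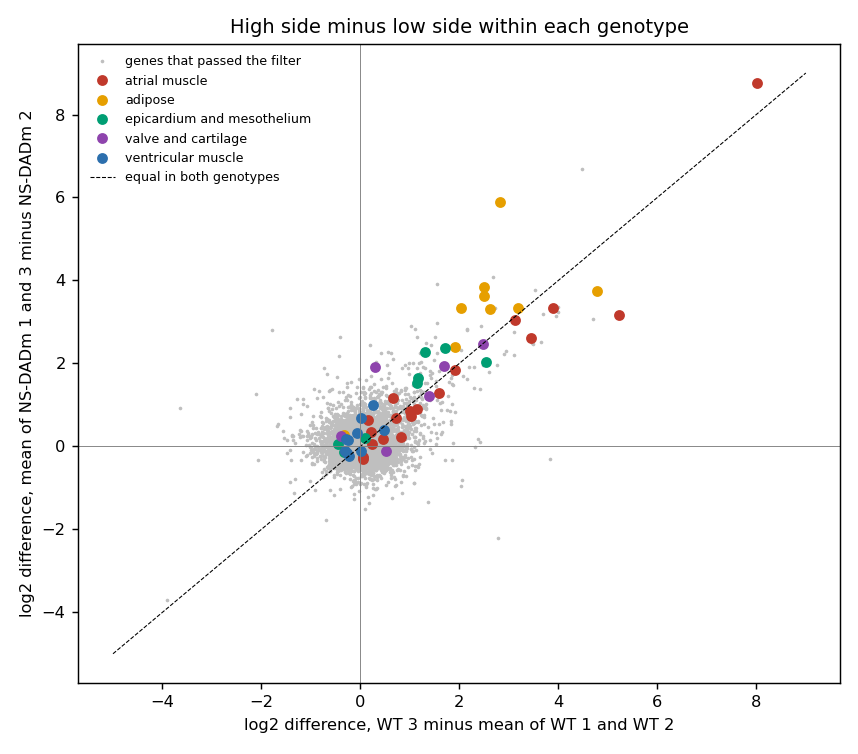
Difference between the sides within NS-DADm against that within WT, in log2 units, for each gene past the filter, with 5 lists coloured and the dashed line marking equal values. Bmp10 lies at 8.01 and 8.75, and the ventricular genes lie around 0. Each axis rests on 3 libraries, 1 of them alone on its side.

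Only 4 genes were set apart with lower values. They included Hist2h2aa2, and also Gm3500 and Gm11423, which were named after their values were seen. Hist2h2aa2 (gene ID 319192), a histone H2A gene, had 26, 25 and 0 counts in WT 1, 2 and 3 and 0, 26 and 0 counts in NS-DADm 1, 2 and 3. The high side was at least 9.15-fold lower, taking 3 counts in each high-side library. Its near-identical copy Hist2h2aa1 was at 40.84 to 49.89 FPKM on the high side and 34.02 to 46.68 FPKM on the low side, with overlap. Reads shared between such copies can be assigned to either one, so the value of Hist2h2aa2 is uncertain.

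The genotypes are given by the labels, and how the side bears on their comparison was tested with edgeR's quasi-likelihood test, with and without the side as a covariate. The side is not a label but was set from expression in these same libraries. With the side, 490 of 13130 genes were called at an adjusted p under 0.05 (3.73%), 265 higher and 225 lower in NS-DADm. Without it, 420 were called (3.2%). The fits shared 379 calls, 77.3% of the first and 90.2% of the second, so 111 calls were gained and 41 lost with the side. At an unadjusted p under 0.05 there were 2401 and 2370 genes. The number of calls with the side fell to 131 without NS-DADm 2, 235 without WT 2, 248 without WT 3 and 271 without WT 1. It was 479 without NS-DADm 3 and rose to 603 without NS-DADm 1. Without WT 3 no WT library remains on the high side, and without NS-DADm 2 no NS-DADm library remains on the low side.

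Of the 163 genes set apart between the sides, 7 (4.29%) were called between genotypes with the side as a covariate, beside 3.73% of all genes, and 0 without it, beside 3.2%. Nothing particular to these genes is read from the counts. They were picked because the sides do not overlap, so a side term takes up much of their spread by construction. Their smaller standard errors and adjusted p with the side are therefore not an independent result on genotype. Gpx3 (gene ID 14778), a secreted glutathione peroxidase, was read at 192.3, 202.8 and 466.9 FPKM in WT 1, 2 and 3 and at 251.8, 111 and 301.3 FPKM in NS-DADm 1, 2 and 3. On each side NS-DADm was lower than WT, but the genotypes overlap over all libraries. The log2 fold change was -0.76 (SE 0.08, adjusted p = 0.000391) with the side and -0.36 (SE 0.38, adjusted p = 0.678) without it. Each SE of a fold change here was worked back from the test, as the fold change's size over the square root of the F statistic. It therefore restates the test. Gpx3 kept its call without each library in turn, with adjusted p from 0.000146 to 0.0111.

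Igf2 and Igfbp3, a growth factor and a binding protein of its family, had the same shape as Gpx3. Igf2 stood at 11.19, 9.14 and 22.6 FPKM in WT and at 14.92, 6.78 and 18.57 FPKM in NS-DADm, and its log2 fold change was -0.62 (adjusted p = 0.0262) with the side. Igfbp3 had a log2 fold change of -0.54 (adjusted p = 0.00805). The calls of Cntfr, Igf2, Igfbp3, Lgals3 and Cacna2d2 were each lost without at least 1 library, with WT 3 among them in each case (adjusted p without WT 3 from 0.092 to 0.694). The call of Bmp10 was upward (0.75 on the log2 scale, SE 0.14, adjusted p = 0.0233), but among WT only WT 3 had any count, so its value rests on that library, and the call was lost without NS-DADm 3 (adjusted p = 0.0729).

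Further calls gained with the side were Lad1, Tfrc, Apoe, Sema6c and Rgs6. Tfrc, the transferrin receptor, was at 9.79, 8.25 and 6.03 FPKM in WT 1, 2 and 3 and at 12.98, 15.23 and 10.15 FPKM in NS-DADm 1, 2 and 3. Its log2 fold change was 0.87 (SE 0.11, adjusted p = 0.00224, against 0.0755 without the side). The genotypes did not overlap. Apoe, apolipoprotein E, was at 176.1 to 270.7 FPKM in WT and 254 to 383.1 FPKM in NS-DADm, with a log2 fold change of 0.46 (adjusted p = 0.00352). Rgs6, which shortens muscarinic signals in heart cells, had a log2 fold change of -0.93 (adjusted p = 0.00472). The call of Sema6c was lost without WT 3 (adjusted p = 0.0869).

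Among the 41 calls lost with the side were Hspa1l, Hmox1, Cxxc5, Ccdc69, Lactb and Irf9, whose adjusted p ran from 0.0503 to 0.0714 with the side and from 0.0355 to 0.0389 without it. Their differences between the sides ran from -0.10 to 0.15. Hmox1, haem oxygenase 1, had a log2 fold change of 0.52 with the side and 0.53 without it (adjusted p = 0.053 and 0.0372). Whether a fold change itself differs between the fits was not tested.

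**Figure D5:**
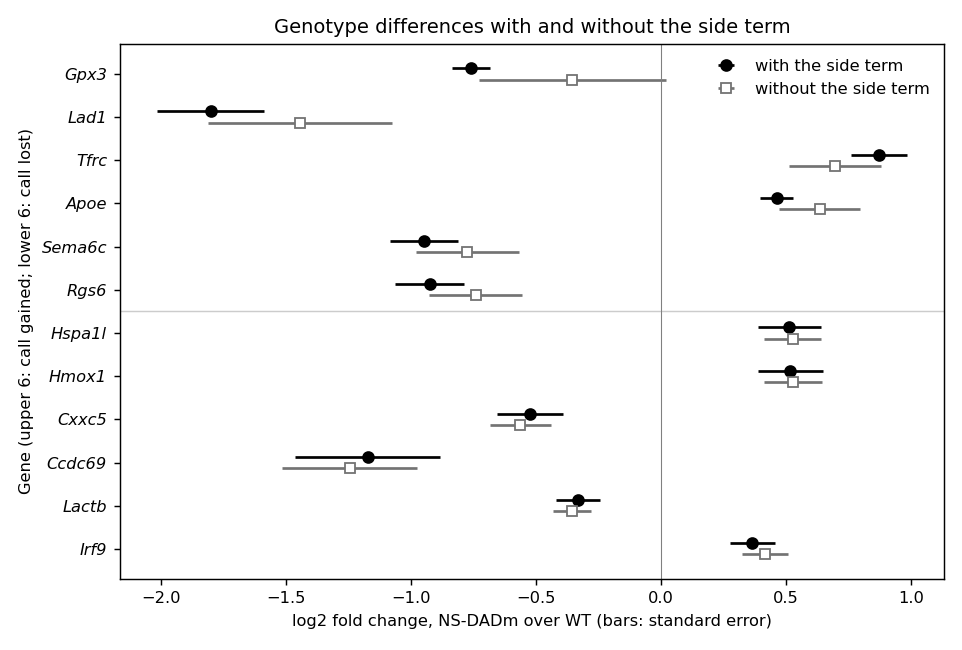
Log2 fold change of NS-DADm over WT, with the side as a covariate (filled circles) and without it (open squares). Drawn are 6 genes whose call was gained and 6 whose call was lost. Bars are the standard error worked back from the F statistic of the test. Gpx3, which was set apart between the sides, moves from -0.36 to -0.76 with a much shorter bar, while the lost calls hardly move.

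Of 369 list genes tested, 29 were called between genotypes with the side and 23 without it, beside 2.02% of all genes called higher and 1.71% called lower with the side. Calls were gained for 7 of them, Bmp10, Kcnj5, Actc1, Wif1, Kcna1, Lum and Fn1, and lost for Fos (adjusted p = 0.0522 with the side and 0.0483 without it). In the atrial list, Kcnj5 was called lower with the side (20.4 ± 2.56 FPKM in WT and 15.3 ± 2.28 in NS-DADm, SD, n = 3, log2 fold change -0.49, adjusted p = 0.0138, against 0.104 without it), and Bmp10 higher, against no call without the side. In shared heart muscle Actc1, cardiac actin, was called higher with the side (log2 fold change 0.25, adjusted p = 0.0411, against 0.286). In the macrophage list 5 of 12 genes were called higher in both fits, and in the node list 3 of 11 were called lower in both. In the immediate early list 6 of 15 were called higher with the side and 7 without it. In the fibroblast list Fn1, fibronectin, was called higher and Lum, lumican, lower with the side (adjusted p = 0.0348 and 0.0401, against 0.0703 and 0.132 without it). No fat, mesothelial, endocardial or smooth muscle gene on the lists was called in either fit. The median genotype difference of the fat list was 0.60 with the side and 1.52 without it, and that of the mesothelial list was 0.66 and 1.10.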

How the data were processed

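Per the labels' protocols, frozen myocardium was extracted with Trizol and libraries were made from total RNA by BGI. The authors deposited an expected count per gene and per transcript, as the file headers name it. In each library 10.79% to 11.57% of genes had a value that is not whole, so an expected count is an estimate of reads assigned. The authors also deposited FPKM, that count scaled by length and library size. HISAT is named in the submitters' processing notes, while the sources used here name no estimator, build or annotation. A gene missing from a table was taken as 0, and the row without a symbol, at most 0.0003214% of counts, was left out.

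Expected counts were rounded, filtered with filterByExpr and scaled by TMM (edgeR 4.0.16, R 4.3.3). Of 17891 genes, 13130 passed. Side differences used log2 CPM with a prior count of 2. The genotype comparison used the quasi-likelihood test of edgeR with Benjamini-Hochberg adjustment over all genes tested, at 0.05. Where nothing ties samples to separate mice, p-values measure only the spread between these samples. Named genes were the 12 set-apart genes with the widest gaps in each direction, with a mean of at least 1 FPKM and no Gm or Rik name, list members, and up to 6 genotype calls gained and lost. A bound for genes at 0 uses 3 counts in each library. Members and lists were chosen with earlier results of these data known. Promoter windows were set to 250 bases after motif shares of longer windows were seen. The scripts were tested on simulated data. Alternatives were DESeq2 1.42.0 size factors and Wald test, limma 3.58.1, no filter, FPKM scales, a prior count of 0.5, no genotype adjustment, other covariates and leaving out each sample. Some genes are not reported here.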

Additional observations from a re-analysis of the deposited data

How the results depend on the processing

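The genes set apart with higher values numbered 290 with no low-count filter, 58 on log2(FPKM + 1) and 155 to 219 when each sample was left out. Those with lower values numbered 21 with no filter, 1 on log2(FPKM + 1), 2 when not adjusted for genotype and 6 to 25 with a sample left out. Non-overlap is easier to meet with a sample left out, so those counts are not on the same footing as the main ones. Of the 159 higher genes, 158 remained set apart with DESeq2 size factors and 135 to 152 with a sample left out. The median of the atrial list was 0.77 on log2(FPKM + 1) and 0.772 to 0.992 with a sample left out. Genotype calls with the side as a covariate numbered 131 to 603 with a sample left out (72 to 343 higher, 59 to 260 lower), 154 with no filter (82 higher, 72 lower), 295 with limma on log2(FPKM + 1) (129 higher), 390 with DESeq2's test and 405 with the score in place of the side. Whether the replicate numbers pair the samples cannot be told from these data. The deviations of same-numbered samples correlated at -0.05, 0.33 and 0.398. The replicate block gave 488 calls with the side (351 shared) and 895 without it (525 higher, 370 lower). Numbers 2 and 3 each hold one side only, so a pairing by number and the side cannot be told apart there. With the side and the block Igf2 and Cacna2d2 were not called (adjusted p = 0.0515 and 0.112), and Hmox1 and Cxxc5 were (0.0409 and 0.0248). Bmp10 has no genotype value without WT 3. No side difference of the 12 higher genes with the widest gaps or of Hist2h2aa2 changed sign in any setting, nor did the genotype fold changes of the 18 genes refitted, whereas the medians of the ventricular, macrophage, erythroid, immediate early and ribosomal lists did so in at least 1 setting. The fat median was 2.13 on log2(FPKM + 1) and 2.44 to 3.66 with a sample left out. The causes of these changes were not tested. Genes under about 3 counts cannot be compared at this depth.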

Other observations

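Other set-apart genes, named here after their values were seen, fell outside the lists. Cyp2e1, a cytochrome P450 of fat and liver, was at 1.73, 0.73 and 13.75 FPKM in WT 1, 2 and 3 and at 8.42, 2.78 and 32.12 FPKM in NS-DADm 1, 2 and 3. Scd1, a fatty acid desaturase, was at 11.77 to 55.43 FPKM on the high side and 5.01 to 7.87 FPKM on the low side, with NS-DADm 3 far above the rest. Cd207, a lectin of Langerhans-type dendritic cells, was at 1.49 to 1.58 FPKM on the high side and 0 to 0.06 FPKM on the low side. Cxcl13, a chemokine that attracts B cells, was at 2.93 to 5.51 and 0.09 to 0.5 FPKM. Myl9, a myosin light chain of smooth muscle, was at 43.85 to 49.77 and 17.93 to 20.35 FPKM, with a difference of 1.19. Cacna2d2, a calcium channel subunit, was at 1.12 to 2.5 and 0.22 to 0.39 FPKM.

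Transcript tables gave 330 higher and 113 lower set-apart models among 17497, with the models of the score genes left out of those set apart. Of these, 161 belong to a gene set apart in the same direction and 282 do not. Reads are split between models by the authors' estimator, so a model can differ where its gene does not.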
